A study of Rattus norvegicus with 6 samples.

Results

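The keratin genes of the rat were examined in polyA-selected RNA of cultured cortical neural progenitors. Members were all genes whose identifier is *Krt* followed by a digit in the 4 RNA-seq tables, without the keratin-associated genes (*Krtap* and *Krtcap*). This gave 45 of 17337 gene identifiers, each with 1 locus. All libraries came from 1 condition. Cortices of Sprague Dawley rats were taken at embryonic day 14, and the untreated cells were grown with bFGF and EGF until after the second passage. The biological replicates, 2 in number, are called A and B, and each gave 2 technical libraries (A1 and A2, B1 and B2). The sources used here do not say how many embryos went into a culture. The 2 Start-seq samples of the series were not used here.

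Keratins are the intermediate filament proteins of epithelial cells. A filament is built from pairs of 1 type I and 1 type II protein, so epithelia express keratins of both types together. Simple epithelia make *Krt8* and *Krt18*, often with *Krt19* or *Krt20*, the basal layer of stratified epithelia makes *Krt5* and *Krt14*, the layers above it *Krt1* and *Krt10*, and hair and its inner root sheath have keratins of their own. Cells of the neural lineage use other intermediate filament proteins, such as vimentin and nestin.

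Levels are given as FPKM, the fragments scaled to transcript length and to the depth of the library, so levels of different genes can be set side by side. Technical libraries were averaged within a replicate, and the mean ± SD is over replicates A and B (n = 2). With 1 condition there was no comparison between conditions and no test was made. B2 stood apart from the other libraries in depth. Its read coverage per FPKM, a measure of depth, was 6.83 against 22.7 to 24.4 in the others, or 28.1% of that of B1. It listed 19 keratins above 0 against 24 or 25 in each of the others. Markers of neural progenitors were present, with 9 of 10 listed genes at a mean of at least 1 FPKM (*Sox1* was not analysed here), among them *Sox2* at 478 ± 137 FPKM. In bulk RNA, a few cells with much keratin mRNA and many cells with little cannot be told apart.

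Keratin mRNA was scarce in these cells, and no keratin reached a mean of 10 FPKM. Of the 45 genes, 14 (31.1%) were listed at 0 in all 4 libraries, against 13.3% of all gene identifiers. A further 19 had a mean above 0 and below 0.1 FPKM, and 7 lay between 0.1 and 1 FPKM. Only 5 keratins (11.1%) had a mean of at least 1 FPKM, against 60.5% of all gene identifiers. Without B2 there were 4, since *Krt19* then had a mean of 0.762 FPKM, and *Krt15* had 1.10 FPKM. The median of the member means was 0.0205 FPKM, and that of all gene identifiers was 3.83 FPKM. A value of 0 in these tables can also be a failed estimate and is not evidence of silence.

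**Figure D1:**
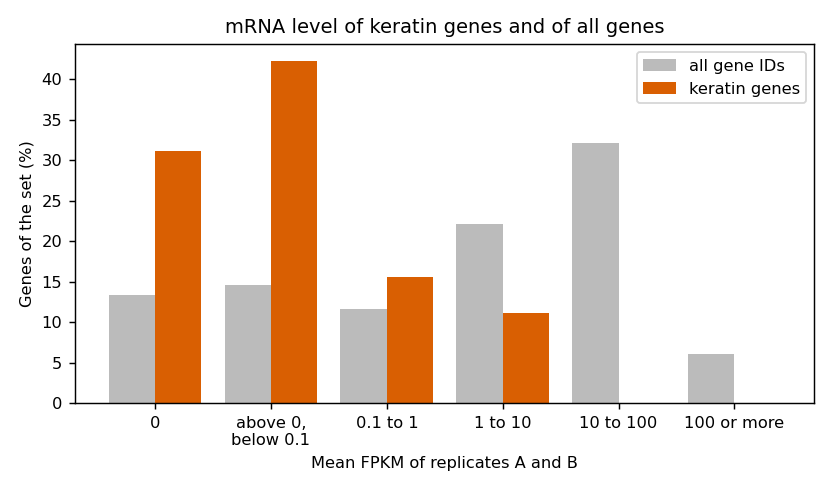
Share of genes (percent, vertical axis) in each class of mean FPKM over replicates A and B (horizontal axis), for the 45 keratin genes and for all 17337 gene identifiers. Most keratins fall in the classes below 1 FPKM, and none lies at 10 FPKM or above, where all gene identifiers have 32.1% (10 to 100 FPKM) and 6.14% (100 FPKM or more).

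The keratins with a mean of at least 1 FPKM came from different epithelial programmes and were all of type I. They were *Krt10* of differentiating epidermis, *Krt32* of the hair cuticle, *Krt15* of basal cells and the hair follicle bulge, *Krt19* of simple epithelia and *Krt26* of the inner root sheath. Together with *Krt8*, the highest type II gene, these 5 genes held between 91.0% and 93.5% of the summed keratin FPKM of a library. The sum over all 45 keratins was 16.6 and 15.2 FPKM in A1 and A2 and 15.6 and 30.7 in B1 and B2. A1, A2 and B1 thus lay close together, and B2 was apart. *Vim* alone, which encodes vimentin, was between 145 and 209 times the keratin sum of the same library.

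**Figure D2:**
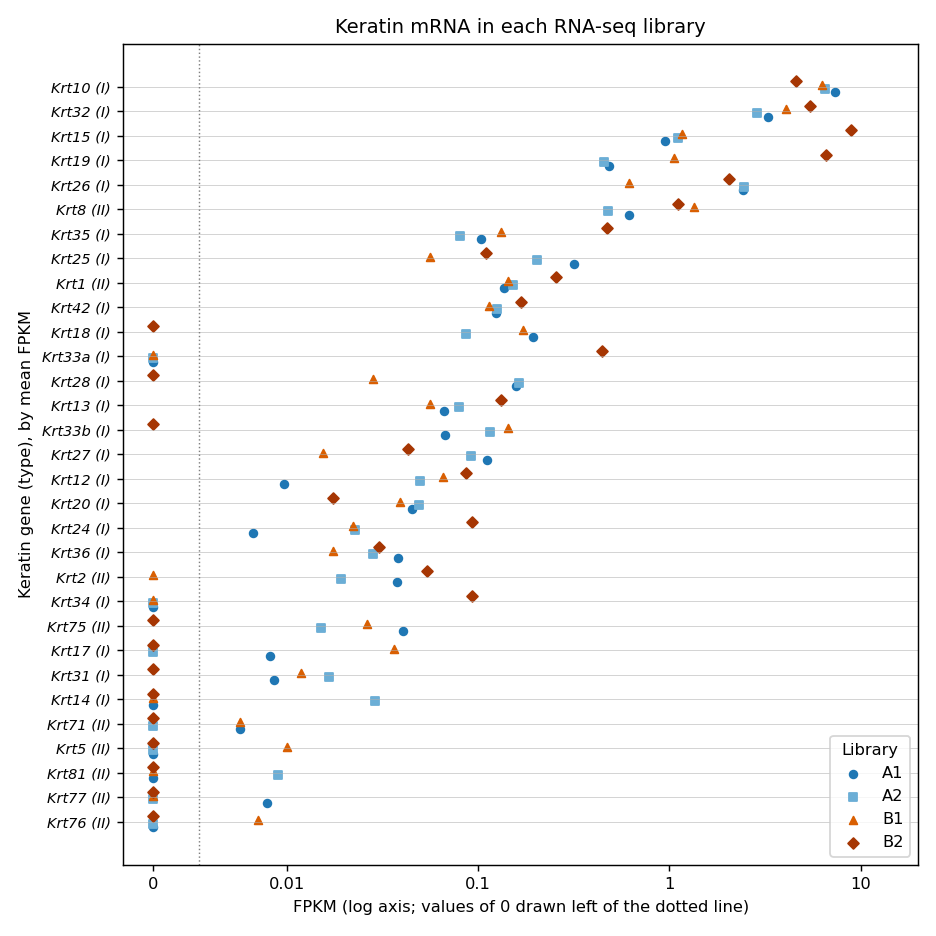
FPKM (log axis) of the 31 keratin genes above 0 in at least 1 library, in order of their mean, with 1 point for each of the libraries A1, A2, B1 and B2 and the keratin type in brackets. Points left of the dotted line are values of 0. *Krt10* and *Krt32* lie close together in the 4 libraries, and B2 lies far to the right of the others for *Krt15* (8.91 FPKM) and *Krt19* (6.59 FPKM).

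*Krt10* had the highest mean of the keratins and was the highest in A1, A2 and B1, while in B2 it was below *Krt15*, *Krt19* and *Krt32*. In rn6 it occupies bases 87296722 to 87300717 of chromosome 10, minus strand. Its FPKM was 7.31 and 6.48 in A1 and A2 and 6.29 and 4.56 in B1 and B2. The mean was 6.16 ± 1.04 FPKM (SD, n = 2), which placed it at rank 7729 of the 17337 gene identifiers. The values in replicate B were below those in A, by 0.30 on the log2(FPKM + 1) scale. The mean read coverage of the gene was 178 and 147 in A1 and A2 and 153 and 31.2 in B1 and B2, so the gene was well covered in every library.

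*Krt32*, a type I hair keratin, was second. Its FPKM was 3.28 and 2.87 in A1 and A2 and 4.08 and 5.44 in B1 and B2, with a mean of 3.92 ± 1.19 FPKM (SD, n = 2). It was below *Krt10* in A1, A2 and B1 and above it in B2. The gene lies on the minus strand of chromosome 10 from 87995109 to 88000534.

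*Krt26*, a keratin of the inner root sheath, had 2.44 and 2.44 FPKM in A1 and A2 and 0.615 and 2.05 in B1 and B2. Its mean of 1.89 ± 0.783 FPKM (SD, n = 2) hides that 1 library, B1, was lower than the other 3. From *Krt32* to *Krt26*, the means of neighbouring genes in the order of levels (*Krt32*, *Krt15*, *Krt19*, *Krt26*) differed by less than their SD over the replicates.

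The stretches of DNA just before the annotated starts of these genes are shown for keratins that were found at a level and for some that were not. They were taken from RefSeq on the GRCr8 assembly, which is not the rn6 build of the tables, and each holds the 120 bases before the gene's start, read 5′ to 3′ on the gene's strand, with every TATAAA in capitals. *Krt10* is at chr10:84839161-84839280, minus strand, and *Krt32* at chr10:85520979-85521098, minus strand. *Krt26* is at chr10:84787002-84787121, minus strand. *Krt8* is at chr7:135010340-135010459, minus strand, and *Krt18* at chr7:135036048-135036167, plus strand. *Krt32* and *Krt26* were added after their values were seen. *Krt5*, which was near 0, is at chr7:134730570-134730689, minus strand.
Krt10: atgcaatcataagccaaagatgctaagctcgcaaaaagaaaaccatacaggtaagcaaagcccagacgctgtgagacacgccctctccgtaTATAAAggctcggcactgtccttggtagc
Krt32: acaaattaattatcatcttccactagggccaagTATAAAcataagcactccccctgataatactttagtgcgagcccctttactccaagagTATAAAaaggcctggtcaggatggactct
Krt26: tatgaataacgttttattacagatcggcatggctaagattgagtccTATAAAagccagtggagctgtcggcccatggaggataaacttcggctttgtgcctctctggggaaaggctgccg
Krt8: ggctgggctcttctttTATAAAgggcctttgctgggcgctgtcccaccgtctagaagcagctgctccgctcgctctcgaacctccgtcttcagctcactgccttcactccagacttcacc
Krt18: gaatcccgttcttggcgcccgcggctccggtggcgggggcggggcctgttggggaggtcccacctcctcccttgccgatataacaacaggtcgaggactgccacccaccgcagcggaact
Krt5: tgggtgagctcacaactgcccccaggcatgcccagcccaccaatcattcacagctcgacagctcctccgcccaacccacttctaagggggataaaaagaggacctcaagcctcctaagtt

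In *Krt10* and *Krt32* a TATAAA, the core of the TATA box, began at position -29, counted back from the first base of the gene. *Krt32* had another at -87. In *Krt26* the motif began at -74 and in *Krt8* at -104, both outside the 50 bases before the annotated start, and *Krt18* and *Krt5* had none in the stretches shown. Promoters were found for 33 of the 45 keratins, which do not include *Krt15*, *Krt19*, *Krt14* and *Krt1*. On the gene's own strand, TATAAA was present within 50 bases of the start in 11 of them (33.3%), against 2.26% of the 33469 promoters in the table. Within 250 bases it was present in 19 keratins (57.6%), against 8.06% of all promoters, and with either strand counted in 21 (63.6%), against 12.9%. In the 50-base window it was present in 4 of 7 keratins of the inner root sheath, 3 of 7 of differentiated stratified epithelia and 3 of 11 of hair. By level, it was present there in 5 of 12 keratins above 0 in all 4 libraries and in 1 of 10 at 0 in all 4, and within 250 bases in 10 of 12 and 3 of 10. *Krt76*, which was above 0 in a single library, had it at -29. The median number of CpG dinucleotides in the 250 bases before the start was 5 in keratins and 5 in all promoters, and *Krt18* had the most among the keratins, with 15. These are matches of letters and do not show that a factor binds.

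Keratins of simple epithelia were low, although every one that was measured was above 0 in at least 1 library. The class held *Krt8*, *Krt18*, *Krt19* and *Krt20* here, and *Krt7* was not analysed. Their summed level was 1.34 and 1.07 FPKM in A1 and A2 and 2.60 and 7.72 in B1 and B2, with a mean of 3.18 ± 2.80 FPKM (SD, n = 2). Without B2 the mean was 1.90 FPKM. All other keratins together had 16.3 ± 2.35 FPKM, and 13.9 without B2. The simple keratins thus held 8.07% and 7.04% of the keratin sum in A1 and A2, and 16.6% and 25.2% in B1 and B2. The share was higher in both libraries of replicate B than in those of A.

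*Krt8*, the type II keratin of simple epithelia, had 0.613 and 0.476 FPKM in A1 and A2 and 1.34 and 1.11 in B1 and B2. Its mean was 0.884 ± 0.481 FPKM (SD, n = 2), and the libraries of A and B did not overlap. The gene is on the minus strand of chromosome 7 from 143596511 to 143603745. *Krt18*, its type I partner, had 0.194 and 0.0866 FPKM in A1 and A2 and 0.171 and 0 in B1 and B2, and the libraries of A and B overlapped. The partners were thus unequal. *Krt8* was 3.16 times *Krt18* in A1, 5.49 times in A2 and 7.81 times in B1, while *Krt18* was listed at 0 in B2. RefSeq names 7 further genes or pseudogenes after *Krt18* and 1 after *Krt8*, and how reads shared with such copies were counted is not given in the sources used here, so the ratio is uncertain. *Krt20*, a keratin of intestinal epithelium, ranged from 0.0175 to 0.0492 FPKM.

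*Krt19*, the simple keratin that lacks a tail domain, and *Krt15* are neighbours on the minus strand of chromosome 10, *Krt15* from 88046806 to 88050622 and *Krt19* from 88055843 to 88060560, with 5.22 kb between them. *Krt15* had 0.949 and 1.11 FPKM in A1 and A2 and 1.17 and 8.91 in B1 and B2. *Krt19* had 0.485 and 0.457 FPKM in A1 and A2 and 1.05 and 6.59 in B1 and B2. Both were thus low in A1, A2 and B1, with values in B2 that were 7.63 times those of B1 for *Krt15* and 6.25 times for *Krt19*. Their means were 3.04 ± 2.83 FPKM and 2.15 ± 2.37 FPKM (SD, n = 2). Mean read coverage in B2 was 60.9 for *Krt15* and 45.0 for *Krt19*, so both genes were well covered in B2 despite its lower depth. Together these genes made up 8.66% and 10.3% of the keratin sum in A1 and A2, and 14.2% and 50.6% in B1 and B2.

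**Figure D3:**
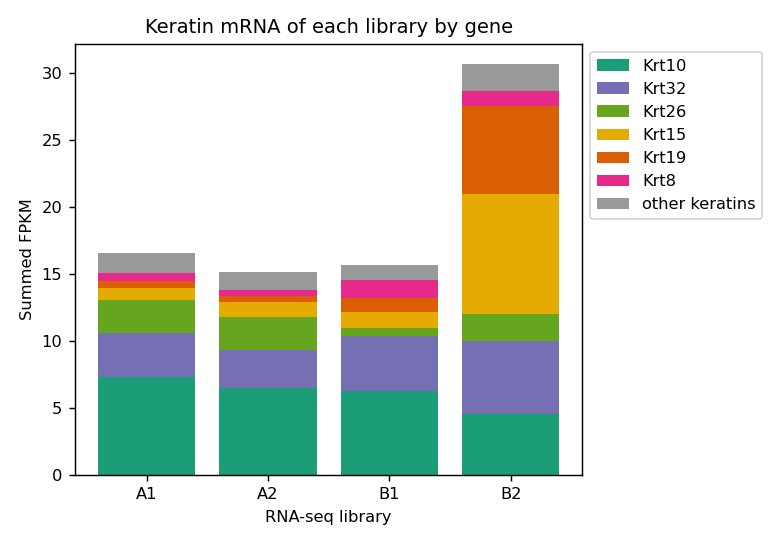
Summed keratin FPKM (vertical axis, from 0) in each RNA-seq library, divided by gene, with all keratins other than the 6 most abundant in grey. The bars of A1, A2 and B1 reach 15.2 to 16.6 FPKM and that of B2 reaches 30.7 FPKM, with *Krt15* and *Krt19* as its largest parts.

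Replicates A and B were compared to see which keratins varied between cultures. To be called different, a gene needed a mean of 1 FPKM or more, replicate means at least 1 apart on the log2(FPKM + 1) scale, and libraries of A that all lay on one side of those of B. Among the 5 keratins with such a mean, 2 were called, *Krt15* and *Krt19*, where 6.2% of the 10481 gene identifiers tested were called. The shares are not comparable, because *Krt19* reached that mean only through B2, where it was high. Both were higher in B, the direction in which 4.78% of all tested genes were called. The difference was 1.57 for *Krt15* and 1.71 for *Krt19* on that scale. Both calls rest on B2, since with B1 alone as replicate B the differences were 0.09 and 0.48 and neither gene was called. *Krt26* was then called lower in B, with a difference of -1.09, against -0.56 with B2 included. In that setting 1.82% of the gene identifiers tested were called lower in B, and *Krt26*, at 0.615 FPKM in B1, reached the mean of 1 FPKM only through A, where it was high. Genes with a value in B2 of at least 5 times each other library were 0.134% of those tested (14 genes), and 2 of the 14 were *Krt15* and *Krt19*. The factor of 5 was set after these values were seen.

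Markers of other cells differed between A and B as well. In a list of 14 meningeal and mesenchymal genes, 11 of the 13 that reached a mean of 1 FPKM were called, all of them higher in B. Of all gene identifiers tested, 6.2% were called, and 4.78% were called higher in B. The list summed to 745 and 727 FPKM in A1 and A2 and 2835 and 3301 in B1 and B2, and none of its genes was at 0 in all libraries. Its most abundant gene, *Col3a1*, a fibrillar collagen gene, had 207 and 200.4 FPKM in A1 and A2 and 694 and 841 FPKM in B1 and B2. *Foxc1*, a transcription factor gene of the meninges, had 29.4 FPKM in B1 and 115 in B2. Endothelial markers summed to 0.941, 0.918, 1.49 and 3.20 FPKM in A1, A2, B1 and B2. Of the 9 neural progenitor markers, 2 were called, *Fabp7* and *Hes5*, both lower in B. Of the choroid plexus markers, all 4 with a mean of 1 FPKM or more were called. *Igf2* and *Aqp1* were higher in B, and *Ttr* and *Otx2* lower. Without a limit on level or size, both libraries of A lay above both of B for 5 of the 10 markers. The reverse held for 3. Among all gene identifiers with a mean above 0, these shares were 30.4% and 24.2%. *Igf2*, a growth factor gene, had 19.5 and 21.1 FPKM in A1 and A2 and 131 and 399 FPKM in B1 and B2. *Aqp1*, a water channel gene, had 1.78 and 1.79 FPKM in A1 and A2 and 7.04 and 11.4 FPKM in B1 and B2. In contrast, *Ttr*, which encodes transthyretin, had 80.7 and 82.6 FPKM in A1 and A2 and 26.4 and 3.03 FPKM in B1 and B2. *Otx2* had 23.7 and 22.4 FPKM in A1 and A2, 16.8 in B1 and a listed 0 in B2. The call of *Otx2* rests on that 0, which can also be a failed estimate. The part of these cells in the keratin values was not tested.

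The keratins of stratified epithelia other than *Krt10* and *Krt15* had means of at most 0.172 FPKM, the value of *Krt1*. *Krt5*, the type II keratin of the basal layer, was above 0 in B1 alone, with 0.0101 FPKM, and its partner *Krt14* in A2 alone, with 0.0290 FPKM. *Krt15* was thus measured without the classical basal pair. *Krt1*, the partner of *Krt10* in the suprabasal layers, had 0.137 and 0.152 FPKM in A1 and A2 and 0.143 and 0.254 in B1 and B2. *Krt10* was 53.3 and 42.5 times *Krt1* in A1 and A2, and 44.0 and 17.9 times in B1 and B2. *Krt76*, a type II keratin of the palate, was above 0 in B1 alone. *Krt13* of the oral mucosa ranged from 0.0559 to 0.131 FPKM, and its partner *Krt4* was listed at 0 in every library. The table row of *Krt5* overlaps 6 other keratin genes on the same strand, so values near 0 in that stretch are uncertain.

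Stress and appendage keratins were also low. *Krt16* was listed at 0 in all libraries, and *Krt17* was above 0 in A1 and B1, with at most 0.0364 FPKM. *Krt42* was the highest of these 4 genes, at 0.133 ± 0.0111 FPKM (SD, n = 2). *Krt6a*, the type II partner of *Krt16* and *Krt17*, was not analysed here.

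Of 15 hair keratins, 7 were listed at 0 in all 4 libraries, and *Krt32* held most of the class. The class summed to 3.50 and 3.12 FPKM in A1 and A2 and 4.39 and 6.48 in B1 and B2. After *Krt32* came *Krt35*, at 0.197 ± 0.149 FPKM (SD, n = 2), a place that rests on B2, since without it *Krt35* had 0.112 FPKM and *Krt33b* 0.118. *Krt33a* was above 0 in B2 alone, at 0.444 FPKM, while *Krt33b*, which overlaps it, was above 0 in the other 3 libraries and at 0 in B2. Of 7 keratins of the inner root sheath, 2 were at 0 throughout. *Krt25*, *Krt27* and *Krt28*, the neighbours of *Krt26*, had means of 0.172, 0.0653 and 0.0873 FPKM. Each of these, like *Krt26*, was higher in both libraries of A than in either library of B. This alone is common with technical pairs. It held for 30.4% of the 15031 gene identifiers with a mean above 0, and for 6 of the 31 such keratins (these 4, *Krt10* and *Krt20*). Of the 3 remaining members, *Krt23* and *Krt80* were at 0 and *Krt24* had 0.0362 FPKM.

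Type I and type II genes differed in level. Of 27 type I genes, 5 were at 0 throughout and 5 reached a mean of 1 FPKM. Of 18 type II genes, 9 were at 0 throughout and none reached a mean of 1 FPKM. The highest, *Krt8*, had 1.34 and 1.11 FPKM in B1 and B2. The type I sum was 15.7 and 14.5 FPKM in A1 and A2 and 14.1 and 29.2 in B1 and B2. The type II sum was 0.842 and 0.671 FPKM in A1 and A2 and 1.53 and 1.42 in B1 and B2. The ratio of the sums was between 9.24 in B1 and 21.6 in A2. *Krt8* made up between 70.9% and 87.4% of the type II sum.

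The types lie in different clusters of the genome. On chromosome 10 of rn6, 26 type I keratins lie on the minus strand within 983 kb, from 87190184 to 88172910. On chromosome 7, the 18 type II keratins and *Krt18* lie within 637 kb, from 142995715 to 143633131. The keratins whose mean over A and B reached 1 FPKM all lay in the chromosome 10 cluster, at several separate places. Next to *Krt10*, the genes *Krt28* and *Krt12* had 0.0873 and 0.0529 FPKM. In the chromosome 7 cluster, *Krt8* and *Krt18* stand at one end, and the rest of the cluster was near 0 apart from *Krt1*. The closest genes outside the clusters with at least 1 FPKM were expressed at much higher levels. *Smarce1*, with 160 ± 9.72 FPKM, lies 52.2 kb from the chromosome 10 cluster and *Eif1*, with 437 ± 19.4 FPKM, 54.5 kb from its other end. On chromosome 7 these were *Atg101*, with 56.0 ± 3.26 FPKM, and *Eif4b*, with 91.1 ± 13.9 FPKM (SD, n = 2 for each).

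**Figure D4:**
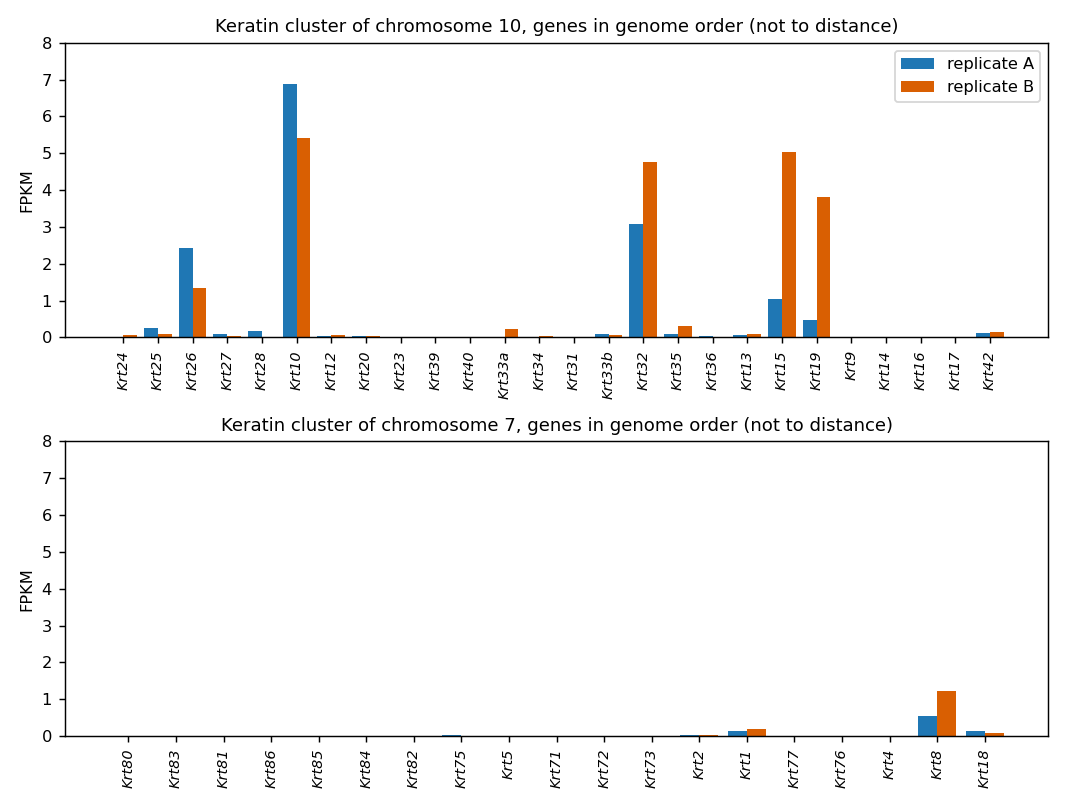
FPKM of each keratin gene in replicates A and B (bars, technical libraries averaged, axis from 0 to 8 FPKM) in genome order, above for the cluster of chromosome 10 and below for that of chromosome 7. The bars of *Krt26*, *Krt10*, *Krt32*, *Krt15* and *Krt19* stand apart among genes near 0, and in the lower panel *Krt8* is the highest, at 1.22 FPKM in replicate B.

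Other genes of epithelial cells were examined beside the keratins. Of 13 genes of epithelial adhesion and surface, none had a mean of at least 1 FPKM. *Cdh1*, which encodes E-cadherin, had 0.0604 ± 0.0489 FPKM and *Epcam* 0.187 ± 0.0898 FPKM (SD, n = 2). The highest were *Spint1*, a protease inhibitor gene, at 0.778 FPKM, *St14* at 0.549 and *Crb3* at 0.319. Of 14 genes of desmosomes and keratin linkers, 3 had a mean of at least 1 FPKM. These were *Jup* (plakoglobin) at 27.9 ± 18.7 FPKM, *Plec* (plectin) at 27.0 ± 2.41 FPKM and *Itgb4* at 1.15 ± 0.914 FPKM. *Jup*, which cells without desmosomes use as well, was the 1 gene of this list called, and it was higher in B. In that direction 4.78% of all tested genes were called. *Itgb4* went the other way, with 2.15 and 1.43 FPKM in A1 and A2 and 0.359 and 0.640 in B1 and B2. The other 11 genes had means from 0 to 0.804 FPKM, the highest in *Pkp2* (plakophilin), and *Dsg4* and *Dsc3* were at 0 throughout. A further 7 listed genes, among them *Dsp*, *Dsg1* and *Dsg2*, were not analysed here.

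Of 13 regulators of epithelial genes, 4 had a mean of at least 1 FPKM, and 3 of these were called, all higher in B, where 4.78% of all tested genes were called in that direction. *Tfap2a* reached the mean of 1 FPKM only through B, where it was high. *Klf4* had 6.05, 6.32, 14.7 and 19.4 FPKM in A1, A2, B1 and B2, *Tfap2c* 2.92, 2.36, 12.0 and 9.21 FPKM, and *Tfap2a* 0.678, 0.649, 2.81 and 2.55 FPKM. Both libraries of B were above both of A in each of them, and their part in the keratin values was not tested. *Klf5* had 1.77 ± 0.935 FPKM and was not called. The other 9 had means from 0.00268 FPKM in *Ovol2* to 0.609 in *Ovol1*, and *Trp63* and *Grhl1* were not analysed here. Of 6 genes of the cornified envelope, *Sbsn* was the highest with 3.24 ± 1.21 FPKM, followed by *Tgm1* at 0.768 and *Tgm3* at 0.0724 FPKM, and 2 were at 0 throughout. A further 6 listed genes, *Lor*, *Flg*, *Cdsn*, *Sprr1b*, *Tchh* and *Krtdap*, were not analysed here. Without a limit on level or size, both libraries of B lay above both of A for 4 of the 13 regulators, 2 of 14 desmosome and linker genes, 1 of 13 adhesion genes and 0 of 6 cornified envelope genes, against 24.2% of all gene identifiers with a mean above 0. The reverse held for 3, 4, 3 and 3 genes of these lists, among them *Ovol1*, *Grhl3*, *Spint1*, *Tgm1* and *Sbsn*, against 30.4% of all. Among 8 genes of microglia and blood, none reached a mean of 1 FPKM.

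Of 16 intermediate filament and lamin genes outside the keratins, all were above 0 in the 4 libraries, and 9 of these reached a mean of 1 FPKM. *Vim* had 3291 ± 374 FPKM, *Gfap* 571 ± 127 FPKM and *Nes* 39.1 ± 3.88 FPKM (SD, n = 2). *Des*, the muscle member of the family, was the lowest, at 0.151 FPKM. The others with a mean below 1 FPKM were *Nefm* (0.890), *Prph* (0.763), *Bfsp1* (0.525), *Nefl* (0.327), *Nefh* (0.315) and *Bfsp2* (0.238). The levels of all these genes lie among those of the keratins. *Krt10* was above *Ina*, a neuronal member with 7.54 ± 1.07 FPKM, in A1 and below it in A2, B1 and B2.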

How the data were processed

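PolyA RNA-seq of cortical neural progenitors was deposited as 1 gene table for each of 4 libraries (2 biological replicates, 2 technical libraries each). The authors aligned reads to rn6 with STAR, and the submitters' processing notes also name StringTie, whose layout the tables have. Versions and the strand setting are not given in the sources used here. FPKM, made by the authors, entered as deposited; their methods name R packages for FPKM, so which tool made the deposited column is not settled here. The TPM values, also made by the authors, served as an alternative. The coverage column, also deposited, gave the depth of a library as coverage per FPKM.

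FPKM was summed by gene identifier and averaged within replicates. With 1 condition and n = 2 no test was made. The rule for differences between A and B was run on simulated data of 17337 genes. It found 200 of 200 genes changed 4-fold and 0 others. How the rule does where 1 library stands apart, as B2 does here, was not tested.

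The members, classes and marker lists were chosen with earlier results of these data known. Named keratins were those of simple epithelia, those with a mean of at least 0.5 FPKM, members of fixed partner pairs and those called between A and B. From the other lists the rule took the 3 highest genes, *Cdh1*, *Epcam*, *Vim* and *Nes*, of which the text gives those that bear on the keratins, and further genes were named after their values were seen. Alternatives were TPM, other thresholds and pseudocounts, scaling of the libraries, the highest row of a gene, other class borders, and each replicate or B2 left out. Promoters came from RefSeq (GRCr8), and all 45 members matched a RefSeq symbol. Python 3.11.15 with pandas 2.3.3, numpy 2.4.6 and matplotlib 3.10.9 was used.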

Additional observations from a re-analysis of the deposited data

Results flagged for a closer look

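Across the 4 RNA-seq libraries, 28 values (named keratins and sums of keratins and marker lists) were examined for a single distant library, by setting the distance from it to its neighbour over the full spread and comparing this with Dixon's critical value. There were 8, of which 5 were high in B2. Chance gives about 1 in 20 for independent values, and the count here cannot be read against that rate. The libraries are technical pairs, 3 of the genes are at 0 in all but 1 library and so meet the criterion by construction, and 2 of the sums repeat *Krt15* and *Krt19*.

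*Krt15*, at 8.91 FPKM in B2, had a gap of 0.972 of the range, and *Krt19*, at 6.59 FPKM in B2, one of 0.903. *Krt1* had 0.254 FPKM in B2 and a gap of 0.870. The sum of the type I keratins, 29.2 FPKM in B2, and that of all keratins, 30.7 FPKM in B2, were far from the other libraries through *Krt15* and *Krt19*. *Krt14* (0.0290 FPKM in A2), *Krt5* (0.0101 FPKM in B1) and *Krt76* (0.00705 FPKM in B1) were each above 0 in a single library, with a mean read coverage of 0.659, 0.245 and 0.172.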

How the results depend on the processing

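For 8 results, 50 alternatives were computed. Of these, 42 moved the value by less than the SD between replicates, or for counts and shares of genes by less than 1.5 times. Some of the 42 could not move a value. Each keratin has 1 locus, so the highest row of a gene changed nothing, and *Krt23* and *Krt80*, added to the simple class, were at 0. The ratios of type I to type II and of *Krt8* to *Krt18* kept their direction, and the other results are counts, sums and shares without one. The other 8 alternatives are given here. Without B2, the sum of the keratins outside the simple class fell from 16.3 to 13.9 FPKM, and 1 keratin in place of 2 differed between A and B, *Krt26* and not *Krt15* or *Krt19*. Without *Krt15* the same sum was 13.3 FPKM (chosen after seeing the data), and in the other unit it was 27.4 TPM. With 0.1 FPKM as the limit, 73.3% of keratins were below it and 12 were at or above it. With a mean of at least 0.1 FPKM and a pseudocount of 0.1, 4 of the 12 keratins tested differed between A and B. *Krt35* and *Krt8* were added, both higher in B. In either direction, this rule called 10.4% of all gene identifiers tested. The same rule without B2 (chosen after seeing the data) called 10.7% of them and 4 keratins, *Krt8* and *Krt19* higher in B and *Krt25* and *Krt26* higher in A, so *Krt15* and *Krt35* rest on B2. The log2 ratio of *Krt8* to *Krt18* was 2.13 with a pseudocount of 0.1 and 0.74 with a pseudocount of 1, which lies further above these levels. With 1 of the 2 replicates left out, no mean can move by more than the SD, so those settings do not test how stable the means are. No paired analysis was possible because the RNA-seq libraries are of 1 condition. *Krt222* is no member here, so the settings without it were not run. Depth limits what the 0 values of B2 can show.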

Other observations

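The 14 genes with a value in B2 of at least 5 times each other library, at a mean of at least 1 FPKM, were *Aldh1a2*, *Atf3*, *Dkk2*, *Fam101a*, *Gjb6*, *Krt15*, *Krt19*, *Myh8*, *Ptgds*, *Sdpr*, *Slc13a4*, *Syt13*, *Tagln2* and *Wisp2*. *Aldh1a2*, which encodes an enzyme of retinoic acid synthesis, had 71.2 FPKM in B1 and 369 in B2, and *Ptgds* had 8.18 and 292 FPKM. The list was drawn up after the values of *Krt15* and *Krt19* were seen.

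The keratin-associated genes of hair, which were left out of the members, were rarer still. Of 8 *Krtap* genes, 6 were at 0 in all libraries and the highest mean was 0.00744 FPKM. The tables also hold 3 keratins under older rat symbols that the rule did not match. These were *Ka11*, *Kb15* and *Kb23*, and their means were at most 0.00166 FPKM. RefSeq lists *Kb15* as *Krt90* and *Kb23* as *Krt83*.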
